A study of Mus musculus with 12 samples.

Results

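The 10 genes *Mfn1*, *Mfn2*, *Opa1*, *Oma1*, *Yme1l1*, *Dnm1l*, *Fis1*, *Mff*, *Mtfp1* and *Mtfr1*, which encode proteins of mitochondrial fusion and fission, were followed in heart muscle of diabetic mice with and without the monoamine oxidase (MAO) inhibitor pargyline. They were taken by symbol from the probe annotation of the arrays and were 10 of 15678 genes with a symbol and a tested probe. The arrays carried 26 probes of these genes. Of these, 24 passed the filter on dim signals, at least 1 for each gene, and the other 2 (*Opa1* probe 3 and *Mff* probe 5) were not well above background on any array. Probes of a gene are numbered here, and its level and change are given by its brightest tested probe, probe 1, unless another is named.

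RNA came from the heart muscle of 12 male C57BL6/J mice aged 5 months, with 3 mice in each of 4 groups. Control mice (C) received vehicle and neither agent, and C+P mice received pargyline by intraperitoneal injection at 50 mg/kg/day for 12 weeks. D mice were made diabetic with streptozotocin, which destroys pancreatic beta cells, at 50 mg/kg/day for 5 days, and then received vehicle. D+P mice received streptozotocin and then pargyline at those doses. Mice with blood glucose of at least 17 mM were counted as diabetic, and only RNA with an integrity number above 7 was used. Each mouse had an array of its own, so that replicates are separate animals, and streptozotocin acted as the only model of diabetes, in 1 sex and 1 strain.

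Mitochondria join and divide continually. The mitofusins MFN1 and MFN2 fuse the outer membranes, and OPA1, a dynamin-like GTPase, fuses the inner membranes and shapes the cristae. OPA1 is cut from long to short forms by a pair of inner membrane proteases, OMA1, which acts under stress, and YME1L1, which acts constitutively. Division depends on DRP1, the cytosolic GTPase encoded by *Dnm1l*, which constricts the outer membrane after it is recruited by adaptors such as MFF and FIS1. MTFP1 is an inner membrane protein that promotes division, and MTFR1 is a regulator of fission. Cardiomyocytes hold densely packed mitochondria, and loss of both mitofusins or of DRP1 in mouse heart leads to cardiomyopathy. MAO itself sits in the outer mitochondrial membrane and releases hydrogen peroxide as it degrades amines.

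The probes are 60 bases long, and where a probe lies decides which transcripts it can read. Among the brightest probes of the 10 genes, 5 had a stop codon in each reading frame of the printed strand, against 4 of the other 16 probes, and the brightest probes of *Oma1* and *Fis1* held the polyadenylation hexamer AATAAA. The files do not give the part of the transcript that a probe reads. The following 5 probes had a reading frame free of stop codons and are shown because they read another stretch of the gene than its brightest probe and are referred to below. The positions are on mouse build mm9 as the arrays' own annotation gives them, all on the plus strand. The probes of *Opa1*, *Fis1* and *Mff* spanned 424, 306 and 15860 bases of the genome, more than their own 60, and so crossed a splice junction. The capitals in the *Yme1l1* probe mark the 15 bases that code for the zinc-binding motif of the protease.
Mfn1 probe 2 (chr3:32461937-32461996): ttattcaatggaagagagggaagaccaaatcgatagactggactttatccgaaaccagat
Opa1 probe 2 (chr16:29629784-29630207): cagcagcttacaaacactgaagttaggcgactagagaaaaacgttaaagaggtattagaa
Yme1l1 probe 2 (chr2:23048648-23048707): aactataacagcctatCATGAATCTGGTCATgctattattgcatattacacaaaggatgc
Fis1 probe 2 (chr5:137441507-137441812): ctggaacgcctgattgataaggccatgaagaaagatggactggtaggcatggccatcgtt
Mff probe 4 (chr1:82727811-82743670): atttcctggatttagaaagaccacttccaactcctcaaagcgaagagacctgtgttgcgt

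Signals were compared as log2 of the background-corrected intensity after quantile normalisation, so that a difference of 1 is a doubling. The brightness of a probe depends on its sequence, and levels are therefore compared between arrays and not between probes. On the 12 arrays 23556 to 29231 of 59305 spots were well above background and 0 spots were saturated. The lowest counts were on D replicates 1 and 3 (23556 and 24666), against 28774 on D replicate 2. Counts were 28472 to 29231 in C, 25164 to 28272 in C+P and 25157 to 27930 in D+P. The arrays in column 1 of a slide (C+P replicate 1, D replicate 1 and D+P replicate 1) had the highest coefficients of variation of repeated spots, 14.3% to 23.0%, against 3.72% to 10.05% on the other 9. The C and D arrays were on 1 slide and the C+P and D+P arrays on the other, so that slide and pargyline cannot be told apart. Row and diabetes cannot be told apart either, since the non-diabetic arrays occupied row 1 of each slide and the diabetic arrays row 2. All 8 cardiomyocyte markers examined (*Myh6*, *Myl2*, *Myl3*, *Tnnt2*, *Tnni3*, *Actc1*, *Ryr2* and *Pln*) were well above background on the 12 arrays, and the labelled tissue is heart muscle. *Sln*, *Myh1*, *Actn3*, *Adipoq*, *Plin1* and *Cidec*, markers of atrial, skeletal muscle and fat cells, were well above background on 0 arrays. The other markers of these lists were so on more arrays, namely *Myl4* and *Lep* on 12, *Tnnt3* on 11, and *Myl7* and *Myh4* on 4 each. In bulk tissue, fewer cells of a type and less RNA per cell cannot be told apart.

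None of the 10 genes differed between groups beyond the adjusted threshold in any of the 6 contrasts (limma, Benjamini-Hochberg adjusted p under 0.05 over 30859 probes). The contrasts were D versus C, D+P versus C+P, the average of these (diabetes averaged over pargyline), C+P versus C, D+P versus D, and the interaction, which is the diabetes effect with pargyline minus that without. The background was itself small. Of all tested probes, 0.00648% passed in D versus C, 0.0454% in D+P versus C+P, 0.107% in the average, 0.0324% in C+P versus C, 0% in D+P versus D and 0.00648% in the interaction. At an unadjusted p under 0.05 the genes that passed were 1, 1, 0, 1, 3 and 1 of 10 in that order of contrasts (*Oma1*; *Mtfr1*; none; *Opa1*; *Yme1l1*, *Oma1* and *Mtfr1*; *Oma1*), beside 10.8%, 7.46%, 11.4%, 4.43%, 13.3% and 7.03% of all probes. The 95% interval of a contrast of 2 groups extended by a median of 0.586 to each side over all probes. It is not adjusted for the number of probes. For a typical probe, changes below about this size did not reach an unadjusted p under 0.05, and the adjusted threshold needed larger changes.

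**Figure D1:**
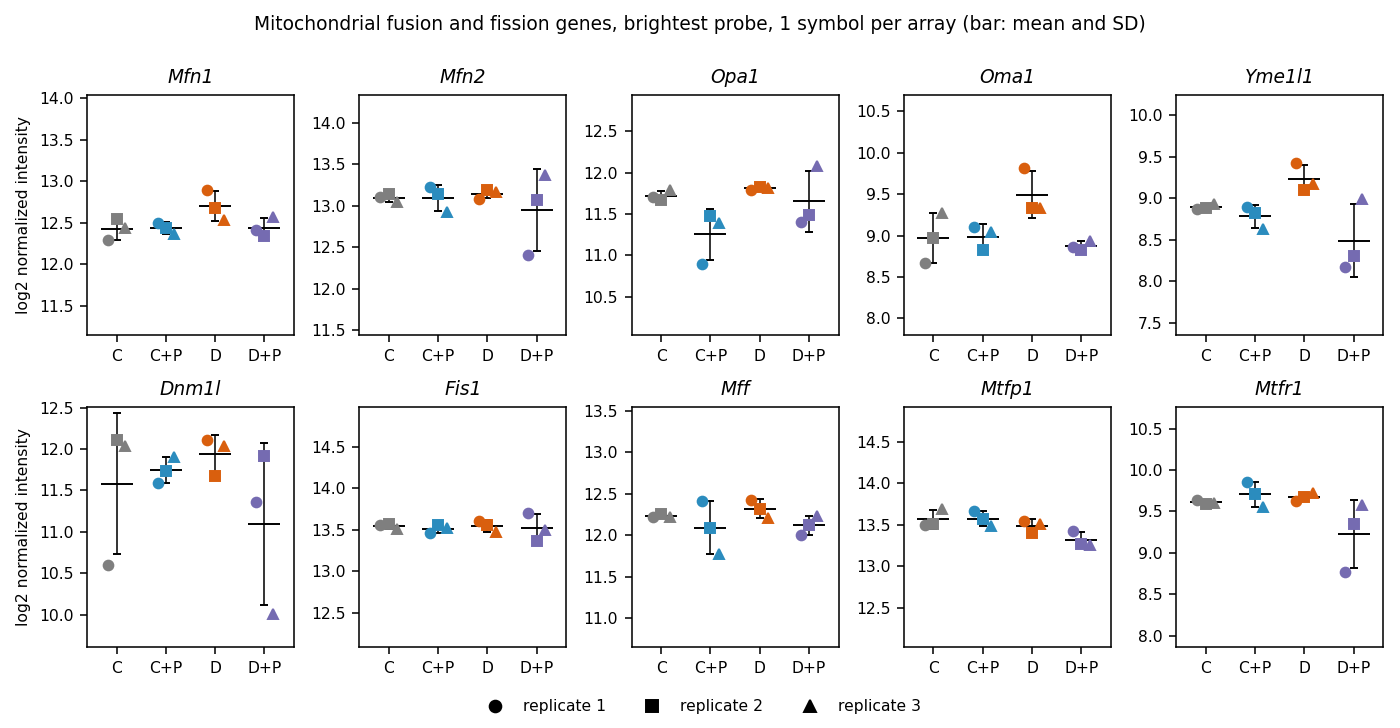
Log2 normalised intensity (vertical axis, the same span in each panel) of the brightest probe of each gene on the 12 arrays, by group (horizontal axis), 1 symbol per array with the replicate number by shape, and black bars for the group mean and SD (n = 3). *Fis1* and *Mtfp1* stayed within narrow bands, *Oma1* and *Yme1l1* were highest in D, and *Dnm1l* was low on C replicate 1 and D+P replicate 3.

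The proteases that cut OPA1 gave the smallest p-values of the set, in D+P versus D. *Yme1l1* (probe 1, chr2:23052695-23052754, mm9) read 8.87, 8.89 and 8.92 in C, 8.90, 8.82 and 8.63 in C+P, 9.42, 9.09 and 9.18 in D, and 8.17, 8.30 and 8.99 in D+P. All D arrays lay above all others, and D+P replicates 1 and 2 were the lowest of the 12. *Yme1l1* was 0.74 lower on the log2 scale in D+P than in D (change -0.74, SE 0.211, limma adjusted p = 0.213), a ratio of 0.598. Compared with C, *Yme1l1* in D was 0.34 higher (SE 0.211, adjusted p = 0.557), and compared with C+P its change in D+P was -0.29 (SE 0.211, adjusted p = 0.782), which ranged from -0.55 without D+P replicate 3 to -0.13 without D+P replicate 1. The other probes of *Yme1l1* were dimmer. Probe 2, which reads the zinc-binding motif shown above, gave -0.53 in D+P versus D (95% interval -1.15 to 0.09, adjusted p = 0.431) and correlated with probe 1 over the 12 arrays (Pearson r = 0.782). Without D+P replicate 1 the difference of the group means of *Yme1l1* probe 2 was -0.21, where such differences with an array left out are descriptions with no test. Probe 3 was well above background on only 2 arrays and gave 0.64 with an interval from -0.89 to 2.17, and -0.16 without D replicate 3.

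*Oma1* (probe 1, chr4:103038974-103039033, mm9) read 8.67, 8.97 and 9.27 in C, 9.10, 8.82 and 9.04 in C+P, 9.82, 9.33 and 9.33 in D, and 8.86, 8.82 and 8.94 in D+P. The 3 D arrays were again the highest of the 12, and the D+P arrays were close together below them. *Oma1* was 0.52 higher in D than in C (SE 0.195, adjusted p = 0.403) and gave a change of -0.62 in D+P versus D (SE 0.195, adjusted p = 0.243). The interaction for *Oma1* was -0.64 (SE 0.275, adjusted p = 0.703). In D+P versus C+P its change was -0.11 (95% interval -0.54 to 0.32). The second *Oma1* probe was well above background on 9 arrays and ran the other way in both contrasts, at -0.25 in D versus C and 0.54 in D+P versus D, with intervals that included 0 (-1.07 to 0.57 and -0.27 to 1.36). Without D replicate 3 they came to 0.05 and 0.24. Without the 3 arrays of slide column 1, *Yme1l1* gave -0.49 (adjusted p = 0.293) and *Oma1* -0.45 (adjusted p = 0.290) in D+P versus D.

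*Opa1* encodes the substrate of these proteases. Its brightest probe (probe 1, chr16:29654613-29654672, mm9) read 11.71, 11.67 and 11.79 in C, 10.90, 11.47 and 11.39 in C+P, 11.79, 11.83 and 11.81 in D, and 11.40, 11.48 and 12.08 in D+P. The C and D arrays were tight, whereas C+P replicate 1 was the lowest of the 12 and D+P replicate 3 the highest. All C+P arrays lay below all C arrays, with a change of -0.47 (SE 0.208, adjusted p = 1.00), and without C+P replicate 1 the difference of the group means was -0.29. Diabetes averaged over pargyline gave *Opa1* the highest value of the 10 genes, 0.24 (SE 0.147, adjusted p = 0.566), made of 0.09 without pargyline and 0.40 with it. Single arrays moved these values of *Opa1*. Without D+P replicate 3 they came to 0.19 with pargyline and 0.14 on average, and without C+P replicate 1 to 0.22 and 0.15, each with an adjusted p above the threshold. *Opa1* probe 2, the junction probe shown above, also had a negative change in C+P versus C (-0.30, and 0.01 without C+P replicate 1) and gave -0.17 for diabetes averaged over pargyline (95% interval -0.67 to 0.33). Its difference in D versus C was -0.17, and 0.14 without D replicate 1. *Opa1* probes 1 and 2 correlated over the arrays with r = 0.484. The arrays measure transcript only, and the long and short OPA1 proteins were not measured.

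The brightest probes of the mitofusins overlapped in each of the 4 contrasts of 2 groups. *Mfn1* (probe 1, chr3:32476215-32476274, mm9) read 12.29, 12.55 and 12.43 in C, 12.50, 12.44 and 12.36 in C+P, 12.90, 12.68 and 12.54 in D, and 12.41, 12.34 and 12.57 in D+P. D replicate 1, a column 1 array, was the highest. *Mfn1* was 0.28 higher in D than in C (SE 0.149, adjusted p = 0.512), or 0.18 without that array, and its change in D+P versus C+P was 0.00 (SE 0.149). *Mfn1* probe 2, shown above, had a correlation of 0.009 with probe 1 over the 12 arrays and gave -0.60 in D+P versus C+P (95% interval -1.74 to 0.54), or 0.04 without D+P replicate 3. *Mfn2* (probe 1, chr4:147247695-147247748, mm9), which also tethers mitochondria to the reticulum, read 13.10, 13.15 and 13.05 in C, 13.23, 13.14 and 12.93 in C+P, 13.09, 13.19 and 13.17 in D, and 12.41, 13.07 and 13.37 in D+P. D+P held both the lowest and the highest array, replicates 1 and 3. The brightest *Mfn2* probe gave 0.05 in D versus C (95% interval -0.44 to 0.53) and -0.15 in D+P versus C+P (-0.63 to 0.34).

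The second *Mfn2* probe gave other values. *Mfn2* probe 2 read 11.07, 10.87 and 10.93 in C, 11.38, 11.004 and 10.66 in C+P, 11.94, 11.29 and 11.24 in D, and 11.23, 11.34 and 11.35 in D+P. All D arrays lay above all C arrays, while D+P and C+P overlapped through C+P replicate 1. For diabetes averaged over pargyline *Mfn2* probe 2 was 0.42 higher (SE 0.16, adjusted p = 0.379), and in D versus C 0.54 higher (SE 0.226, adjusted p = 0.442). D replicate 1, a column 1 array, was its highest, and without it the difference of the *Mfn2* probe 2 means of D and C was 0.31. Its correlation with the brightest *Mfn2* probe over the 12 arrays was 0.14. *Mfn2* probe 3 was 0.11 higher (SE 0.177) on average. The probes carry different transcript accessions, and isoforms were not measured apart from them.

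*Dnm1l*, which encodes DRP1, was the most variable of the genes. Its brightest probe (chr16:16312363-16312422, mm9) read 10.60, 12.11 and 12.03 in C, 11.59, 11.73 and 11.91 in C+P, 12.11, 11.67 and 12.04 in D, and 11.36, 11.92 and 10.01 in D+P. Only C replicate 1 and D+P replicate 3 fell below 11, and the other 10 arrays spanned less than 1 unit. The within-group SD was 0.664, at the 86.8th percentile of all tested probes, whose median was 0.335. The change of *Dnm1l* in D+P versus D was -0.84 (SE 0.485, adjusted p = 0.462), and without D+P replicate 3 it was -0.30 (adjusted p = 0.778). *Mfn1* probe 2 was lowest on these 2 arrays as well, at 6.37 and 5.87 against 7.48 to 7.88 on the others. Over all tested probes with a value on each array, 52 had these 2 arrays lowest by a gap of at least 0.5, beside a median of 12 probes for the 66 possible pairs of arrays, and 9 other pairs had more. *Dnm1l* probe 2, well above background on 6 arrays, was 0.75 higher in D+P than in D (SE 0.322, adjusted p = 0.355), opposite to probe 1. D replicate 1, a column 1 array, read 3.85 on it, against 5.42 and 4.91 on the other D arrays and 5.76, 5.27 and 5.41 in D+P. Without D replicate 1 the difference of the *Dnm1l* probe 2 means was 0.31.

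The DRP1 adaptors varied little from array to array. *Fis1* (probe 1, chr5:137442037-137442096, mm9) lay between 13.37 and 13.70 on all 12 arrays, and the C and D means were both 13.54, beside 13.51 for C+P and 13.52 for D+P. Its within-group SD of 0.094 was at the 1.7th percentile of tested probes, and no 95% interval of its changes between 2 groups went beyond -0.328 or 0.306. *Fis1* probe 2, shown above, was 0.21 higher for diabetes averaged over pargyline (SE 0.107, adjusted p = 0.482). *Mff* (probe 1, chr1:82748825-82748884, mm9) averaged 12.23 ± 0.018 in C and 12.32 ± 0.114 in D without pargyline, and 12.09 ± 0.319 in C+P and 12.12 ± 0.115 in D+P with it (SD, n = 3). The change of *Mff* was 0.09 in D versus C, 0.03 in D+P versus C+P and -0.20 in D+P versus D, each with an interval that included 0. *Mff* probe 2 followed probe 1 over the arrays (r = 0.847), whereas probes 3 and 4 did not (r = -0.205 and 0.136).

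*Mtfp1* and *Mtfr1*, the inner membrane and regulatory factors of division, had their lowest means in D+P, as had *Mfn2*, *Oma1*, *Yme1l1* and *Dnm1l*. *Mtfp1* (probe 1, chr11:3991559-3991618, mm9) read 13.49, 13.51 and 13.69 in C, 13.67, 13.57 and 13.48 in C+P, 13.55, 13.40 and 13.51 in D, and 13.43, 13.27 and 13.26 in D+P. The D+P arrays were all below the C+P arrays, although the distance was small. The change of *Mtfp1* was -0.26 in D+P versus C+P (SE 0.135, adjusted p = 0.698) and -0.17 for diabetes averaged over pargyline (SE 0.095, adjusted p = 0.542, the smallest of the 10 genes in that contrast). *Mtfp1* probe 2 was well above background on 0 arrays.

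*Mtfr1* (probe 1, chr3:19119481-19119540, mm9) read 9.64, 9.60 and 9.60 in C, 9.86, 9.71 and 9.55 in C+P, 9.63, 9.68 and 9.73 in D, and 8.77, 9.35 and 9.57 in D+P. D+P replicate 1, a column 1 array, was the lowest, and D+P replicate 3 overlapped with C+P replicate 3. The change was -0.48 in D+P versus C+P (SE 0.196, adjusted p = 0.636) and -0.45 in D+P versus D (SE 0.196, adjusted p = 0.358). Without D+P replicate 1 the change of *Mtfr1* in D+P versus C+P was -0.25 (adjusted p = 0.704). In D+P versus D it was -0.22 without that array (adjusted p = 0.602), and without the 3 column 1 arrays it was -0.24 (adjusted p = 0.384). *Mtfr1* probe 2 had the same sign in both contrasts, at -0.94 and -0.96 (-0.57 in the latter without D replicate 3), and correlated with probe 1 (r = 0.689).

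**Figure D2:**
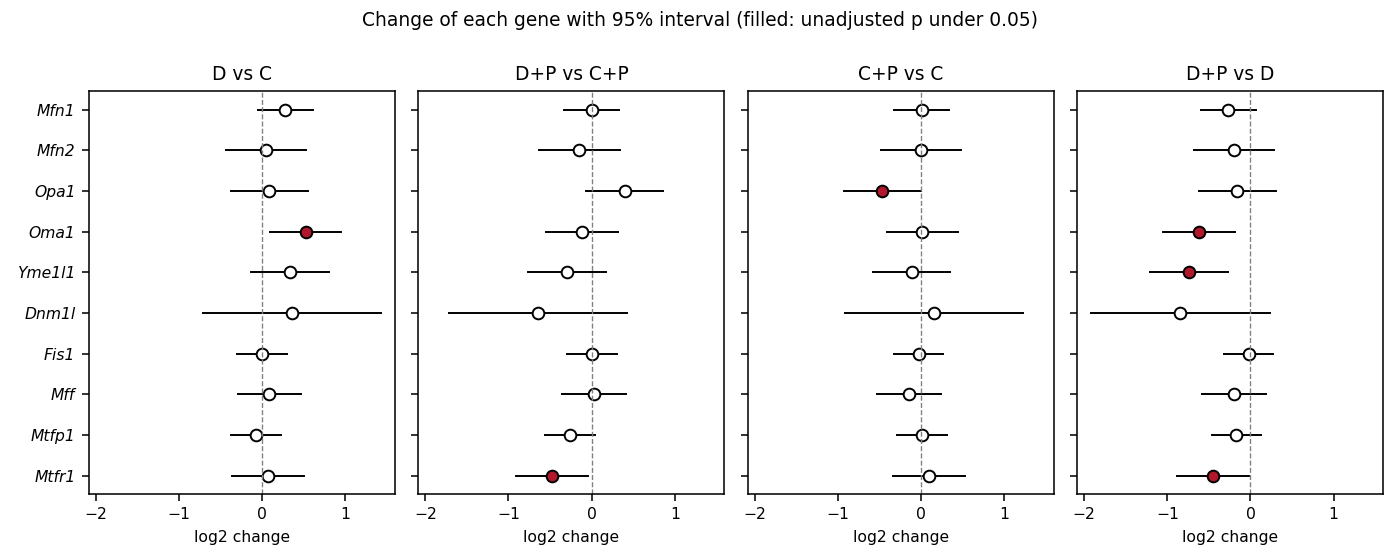
Log2 change (horizontal axis) of each gene by its brightest probe with its 95% interval, in D versus C, D+P versus C+P, C+P versus C and D+P versus D; filled points had an unadjusted limma p under 0.05 and none passed after adjustment. In D+P versus D all 10 points lie below 0, with *Yme1l1*, *Oma1* and *Mtfr1* filled.

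Read together by sign, 9 of the 10 genes were higher in D than in C (median change 0.09), beside 48.9% of all probes with a change above 0 and a median of -0.01. The exception was *Mtfp1*, and the value of *Fis1* was 0.00. In D+P versus D, 0 of 10 were higher and 10 were lower (median -0.23), beside 49.9% of all probes higher and a median of -0.001. These contrasts share the D arrays, so that an array value of D enters both with opposite sign. With pargyline in both groups (D+P versus C+P) 4 genes were higher and 6 lower (median -0.13; 51% of all probes higher), and in C+P versus C 5 were higher and 5 lower (49% of all probes higher). The genes were chosen by function and not independently of each other, and no test was made over them as a set. Their brightest probes were at the 68.5th to 96.9th percentile of level among tested probes, whereas the shares over all probes include dimmer ones.

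The groups did not overlap for 2 genes in D versus C (*Oma1* and *Yme1l1*, both higher in D; 11.9% of all probes did so in this direction) and for 3 in D+P versus D (*Yme1l1*, *Oma1* and *Mtfr1*, all lower in D+P; 9.12% of all probes). In D+P versus C+P it was *Mtfp1* only (lower; 6.57%), and in C+P versus C *Opa1* only (lower; 8.02%). Averaged over the 10 genes, the deviation from each gene's mean over the arrays was 0.29, 0.13 and 0.15 in D replicates 1 to 3 and -0.30, -0.14 and -0.10 in D+P. It was -0.13, 0.08 and 0.11 in C and 0.02, -0.01 and -0.09 in C+P. All D arrays lay above the others, whereas C replicate 1 lay within the range of D+P. D replicate 1 and D+P replicate 1, which deviated most, were column 1 arrays. Without the 3 column 1 arrays 8 of the 10 genes were higher in D than in C, 9 were lower in D+P than in D, and 0 had an unadjusted p under 0.05 in either contrast.

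The sign in D+P versus D held less well over all probes. Of the 24 tested probes 17 were lower and 7 higher. All 10 brightest probes were among the lower, and the 7 higher were dimmer probes of *Mfn2*, *Oma1*, *Yme1l1*, *Dnm1l*, *Fis1* and *Mff*. In D versus C 16 probes were higher and 8 lower. When the tested probes of a gene were averaged, 7 genes were lower in D+P than in D, and the change of *Oma1* came to -0.04, that of *Yme1l1* to -0.21 and that of *Mtfr1* to -0.71.

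**Figure D3:**
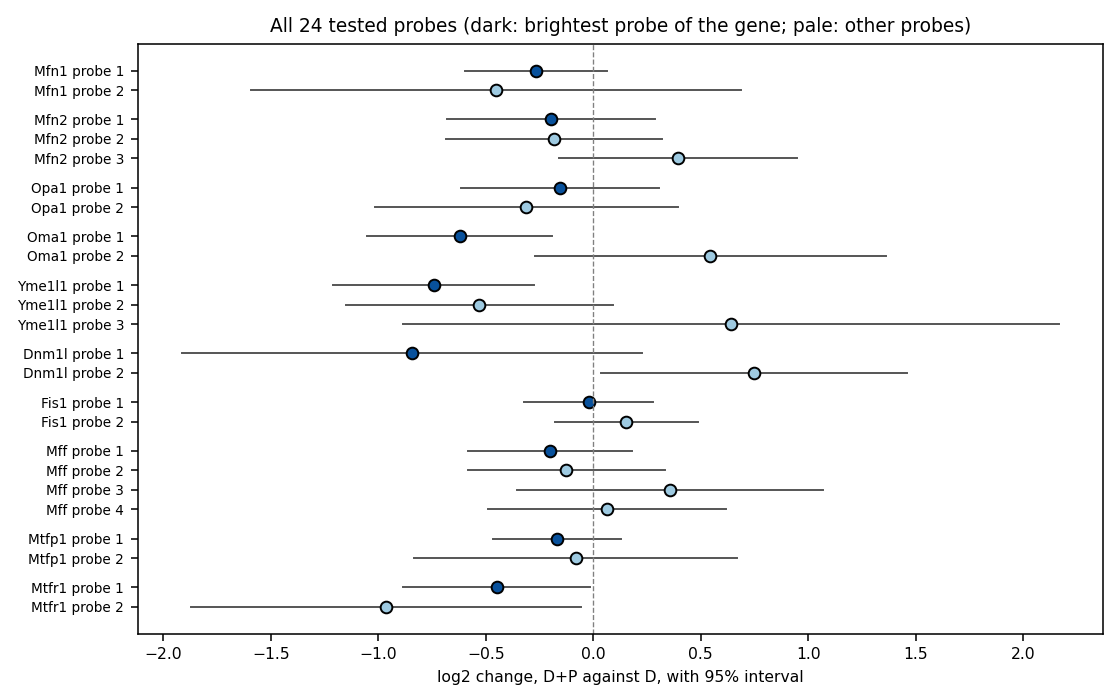
Log2 change in D+P versus D (horizontal axis) with its 95% interval for the 24 tested probes of the 10 genes, dark for the brightest probe and pale for the others. The probes of *Mfn1*, *Opa1*, *Mtfp1* and *Mtfr1* share a direction, and those of *Oma1*, *Yme1l1* and *Dnm1l* include 1 in the opposite direction.

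Of 45 pairs of the genes, 35 had a positive Pearson correlation of their brightest probes over the 12 arrays, with a median of 0.257. Of all pairs of 15656 genes with a symbol and a value on each array, 50.5% were positive, with a median of 0.005. The pairs of the 10 genes had a range from -0.61 (*Mfn2* and *Fis1*) to 0.868 (*Mfn2* and *Mtfr1*). *Oma1* and *Yme1l1* correlated with r = 0.71, *Mfn1* and *Oma1* with 0.85, and *Yme1l1* and *Mtfr1* with 0.754. Without the 3 column 1 arrays these were 0.57, 0.646 and 0.854 (n = 9), whereas *Mfn2* and *Mtfr1* came to 0.238 and *Mfn2* and *Fis1* came to 0.05. The arrays share slides and groups, and these values are descriptive. The genes most like *Opa1* over the 12 arrays among 15677 searched were *Ppp1cb* (r = 0.945), *Araf* (0.929) and *Hmgb2* (0.926), and those most like *Mtfr1* were *Ankrd40* (0.978), *Gorasp1* (0.972) and *Nus1* (0.968).

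Promoter sequence was examined for what these genes share upstream. RefSeq windows (GRCm38.p6) from 250 bases before to 50 after the transcription start held 9 of the 10 genes, in 14 windows, since some genes have more than 1 start. The motifs searched on both strands were the NRF1 palindrome GCGCATGCGC, the ETS core CCGGAAG, the GC box GGGCGG, the estrogen-related receptor core AAGGTCA, the FOXO site GTAAACA and the E-box CACGTG, none of which contains another. The NRF1 palindrome, bound by a regulator of nuclear genes for mitochondria, was in the window of *Opa1* alone of the 9, beginning 59 bases before the start, and thus in 1 of the 14 windows, beside 0.971% of 32851 windows in all. The ETS core was in those of *Mfn1*, *Yme1l1*, *Dnm1l* and *Fis1*, in 5 of the 14 windows, beside 8.86% of all windows. The GC box was in 11 of the 14 windows, from 8 of the 9 genes, beside 35.7%. The other 3 motifs, found in 3.65% to 7.15% of windows, had no match in the 9. A match describes letters only, and binding was not measured.

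The last 120 bases before the start are shown for *Opa1* and for both of its proteases, with matches in capitals and coordinates on GRCm38.p6, all on the plus strand. *Yme1l1* had ETS cores beginning 73 and 19 bases before the start, on each side of adjacent GC boxes, and *Oma1* had GC boxes at 92 and 45 bases.
Opa1 (chr16:29579214-29579333): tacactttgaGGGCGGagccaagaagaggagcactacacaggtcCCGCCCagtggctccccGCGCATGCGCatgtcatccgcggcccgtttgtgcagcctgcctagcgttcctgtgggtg
Oma1 (chr4:103313726-103313845): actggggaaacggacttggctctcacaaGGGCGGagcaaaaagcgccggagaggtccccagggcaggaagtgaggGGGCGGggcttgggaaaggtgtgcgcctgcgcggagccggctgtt
Yme1l1 (chr2:23156385-23156504): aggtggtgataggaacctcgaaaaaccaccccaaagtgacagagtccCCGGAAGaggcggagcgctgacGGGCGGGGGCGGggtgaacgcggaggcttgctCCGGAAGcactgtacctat

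The wider pathway was read from 6 lists of 54 genes, of which all but 2 were tested. Again 0 genes passed the adjusted threshold in any contrast. Of each list the genes with the lowest and the highest change for diabetes averaged over pargyline are given here. Among 12 further fusion factors and OPA1 processing genes these were the prohibitins, inner membrane scaffolds that stabilise OPA1. *Phb* gave -0.62 (SE 0.187, adjusted p = 0.265) and *Phb2* 0.39 (SE 0.117, adjusted p = 0.268), opposite in direction. Among the fission receptors and factors (6 of 8 tested) *Mtfr1l* gave -0.22 and *Mtfr2* 0.39, with adjusted p of 0.520 and 0.547. Both are relatives of *Mtfr1*.

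Among 12 modifiers of DRP1 and the mitofusins, *Cdk5*, a kinase, gave -0.35 (SE 0.124, adjusted p = 0.345) and *Pink1*, a kinase of mitochondrial quality control, 0.20 (SE 0.109, adjusted p = 0.526). In the cristae organising system of 8 genes *Immt*, which encodes mitofilin, gave -0.35 (SE 0.21, adjusted p = 0.555) and *Samm50*, an outer membrane assembly factor, 0.21 (SE 0.142, adjusted p = 0.603). In the 4 transport adaptors *Rhot1*, which links mitochondria to motor proteins, gave -0.15 and *Trak2*, a kinesin adaptor, 0.09. For mitochondrial content and biogenesis (10 genes) *Hspd1*, a matrix chaperonin, gave -0.22 and *Ppargc1b*, a transcriptional coactivator, 0.36 (SE 0.171, adjusted p = 0.464). The median change of that list was -0.04 for diabetes averaged over pargyline and 0.06 in D+P versus D.

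In D+P versus D, where the 10 fusion and fission genes had a median of -0.23, the 6 lists had medians from -0.08 (cristae organising system) to 0.06, and 3 or more genes of each list but the transport adaptors were higher. The difference between the lists was not tested. Markers of other cell types were summed per array beside it. Endothelial markers (*Pecam1*, *Cdh5*, *Kdr* and *Tek*) lay between 12.69 and 13.15 on the log2 scale in D and between 13.28 and 13.62 in D+P, without overlap, with 4 of 4 higher in D+P and 1 of 4 at an unadjusted p under 0.05. Their mean log2 values did overlap, at 9.85 to 10.16 in D and 10.12 to 10.32 in D+P. Fat cell markers lay between 7.66 and 8.33 in D and between 7.17 and 7.65 in D+P when summed, where *Lep* alone was well above background on any array. Their mean log2 values overlapped, at 4.44 to 5.09 in D and 4.03 to 4.47 in D+P. Of the 2 fat cell markers tested, both were lower in D+P than in D and 1 had an unadjusted p under 0.05, *Plin1*, a lipid droplet protein, at -1.30 (adjusted p = 0.252). Smooth muscle and pericyte markers (3 of 4 higher, 1 at an unadjusted p under 0.05) ranged from 13.02 to 13.49 in D and 13.08 to 13.39 in D+P when summed. Their mean log2 values did not overlap, at 9.75 to 10.23 in D and 10.42 to 10.55 in D+P, and *Myh11*, a smooth muscle myosin, was 1.59 higher (SE 0.324, adjusted p = 0.157). Atrial markers overlapped when summed, whereas their mean log2 values lay between 5.51 and 5.61 in D and between 4.74 and 5.34 in D+P. These means include *Sln*, which did not pass the filter on dim signals. The change of *Myl7*, an atrial myosin light chain, was -1.18 (SE 0.406, adjusted p = 0.271), and this gene was well above background on only 4 arrays. *Myl4*, well above background on 12 arrays, gave -0.04. Ventricular cardiomyocyte markers, whose sum rests on the brightest sarcomere genes, ranged from 19.44 to 19.72 in D and from 19.49 to 19.72 in D+P, with 2 of 8 higher and 0 at an unadjusted p under 0.05. In the diabetes contrasts 4 of these 8 were higher and 4 lower. *Ryr2*, the calcium release channel of the sarcoplasmic reticulum, was the only one of the 8 at an unadjusted p under 0.05. Its change was -1.12 in D versus C (adjusted p = 0.306), -0.85 in D+P versus C+P (adjusted p = 0.559) and -0.99 for diabetes averaged over pargyline (SE 0.212, adjusted p = 0.141). All 4 macrophage markers had negative changes in D+P versus C+P and for diabetes averaged over pargyline, 2 of them (*Adgre1* and *Cd68*) at an unadjusted p under 0.05 in each, and *Adgre1* gave -0.93 (adjusted p = 0.374) and -0.59 (adjusted p = 0.256). The mean log2 values of the atrial markers did not overlap in D+P versus C+P, at 5.43 to 5.76 in C+P and 4.74 to 5.34 in D+P. Their sums overlapped, and *Myl7* gave -1.04. In D versus C, *Myl7* was 0.94 higher (adjusted p = 0.452), *Myh11* gave -0.83 (adjusted p = 0.422), and all 4 macrophage markers were lower (median -0.31, 0 at an unadjusted p under 0.05). Fibroblast markers (*Col1a1*, *Col1a2*, *Pdgfra* and *Dcn*, 3 of 4 higher in D) had mean log2 values of 11.74 to 11.81 in C and 11.82 to 11.87 in D, without overlap, whereas their sums overlapped. In C+P these means were 11.67 to 11.70, below those in C without overlap, with 2 of the 4 markers higher and 2 lower than in C. The sums of C+P and C overlapped. *Pdgfra*, a growth factor receptor, was 0.45 higher for diabetes averaged over pargyline (adjusted p = 0.399), the only one of the 4 at an unadjusted p under 0.05 there. The part of these markers in the results for the fusion and fission genes was not tested.

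**Figure D4:**
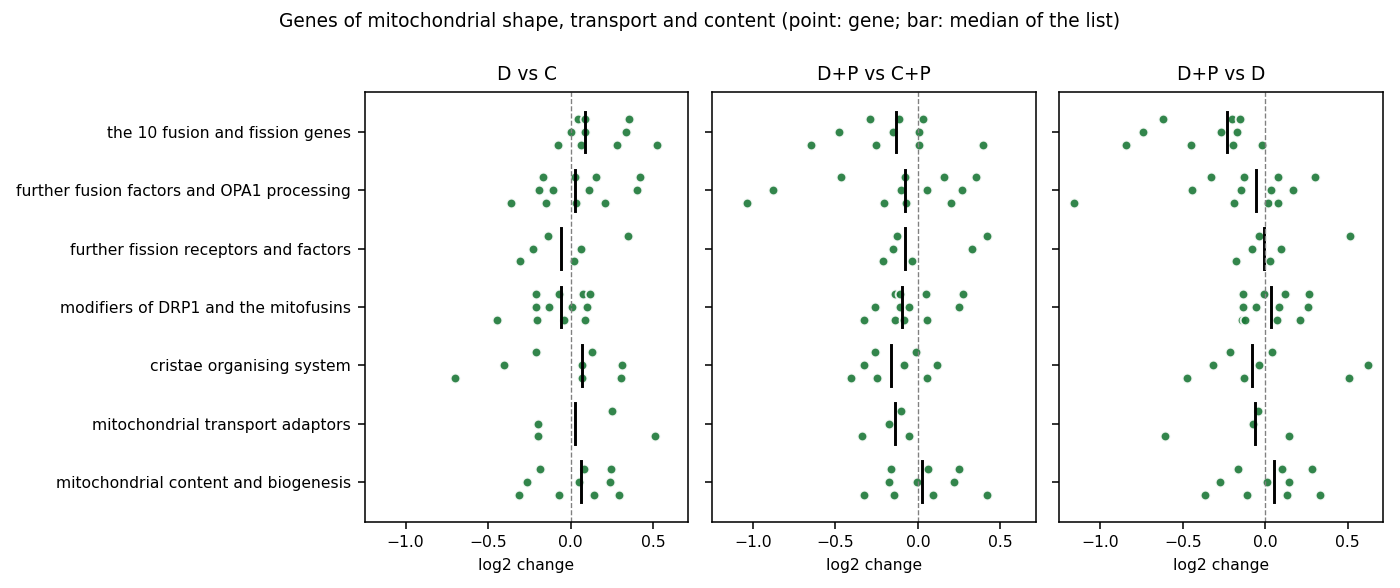
Log2 change (horizontal axis) of each tested gene, 1 point per gene by its brightest probe, for the 10 fusion and fission genes and 6 lists of related genes in D versus C, D+P versus C+P and D+P versus D, with a bar for the median of the list. The median of the fusion and fission genes was 0.09, -0.13 and -0.23 in these contrasts, and 0 genes passed the adjusted threshold.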

How the data were processed

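The authors labelled RNA with Cy3, hybridised it to single-colour Agilent mouse arrays and read them with Feature Extraction (12.0.0.7 in the file headers). The deposited intensity per spot was background-subtracted and not normalised between arrays. The deposited series table holds intensity that the authors had quantile normalised, and served as an alternative. Samples were grouped by their labels.

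Here, log2 intensity was quantile normalised, spots of a probe were averaged, and probes were kept where the positive-and-significant flag held for 50% or more of each group's arrays (30859 of 56605). Differences were tested with limma 3.58.1 in R 4.3.3, with 4 group means over 12 arrays, two-sided, and Benjamini-Hochberg adjustment over all kept probes at 0.05. The procedure was tested on simulated data. Plots were drawn with matplotlib 3.10.9. All 10 genes and every probe are named. From each related list, genes past the threshold or else the lowest and highest averaged change are named, and from *Opa1* and *Mtfr1*, whose averaged changes were the largest, the 3 most correlated genes. The members and lists were chosen with earlier results of these data known. Precision is limited by 3 arrays per group. The alternatives are given in the closing section.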

Additional observations from a re-analysis of the deposited data

How the results depend on the processing

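The count of fusion and fission genes past the adjusted threshold was 0 in each of the 6 contrasts under each alternative run: 75th percentile scaling, normexp, values not positive and significant left out, no filter or a stricter filter on dim probes, array weights, the series table, the mean over all tested probes, each array left out in turn and, chosen after seeing the data, slide column as a block and without the slide column 1 arrays. It was also 0 with only the groups compared and with the methods' t-test, which were run for the 4 contrasts of 2 groups, and with slide as a block, which was run for diabetes averaged over pargyline. The labels do not state that replicate numbers pair the samples. Between groups, the deviations of same-numbered arrays from their group means correlated by -0.204 to 0.2 (mean 0.014). Those of differently numbered arrays correlated by -0.195 to 0.206 (mean -0.007). With the replicate block 0 genes passed in each contrast. The count higher in D than in C ranged from 7 to 10, and that lower in D+P than in D from 7 to 10. The differences of group means of single probes with 1 array left out were also chosen after seeing the data. Precision is limited by 3 arrays per group and, for *Oma1* probe 2, *Yme1l1* probe 3, *Dnm1l* probe 2 and *Mtfp1* probe 2, by signals near background.

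Each gene was followed under the alternatives in 4 contrasts, not in C+P against C or the interaction. Of these 2, chosen after seeing the data, the values printed for *Opa1* and *Oma1* were followed and kept their sign. They ranged from -0.575 to -0.289 and from -0.785 to -0.072, and -0.072 came from the mean over all tested probes. In the 4 contrasts, changes below the threshold turned sign as follows, on the log2 scale, and the cause was not tested. With 75th percentile scaling the changes were 0.123 for *Mtfp1* in D against C, -0.048, -0.03 and -0.068 for *Mfn1*, *Fis1* and *Mff* in D+P against C+P, and 0.034 for *Mfn2* in diabetes averaged over pargyline. With normexp they were -0.024 and 0.051 for *Fis1* and *Mtfp1* in D against C, -0.04 for *Mfn1* in D+P against C+P and 0.073 for *Fis1* in D+P against D. With array weights they were -0.005 for *Fis1* in D against C, -0.011 and -0.061 for *Mfn1* and *Fis1* in D+P against C+P, and -0.038 and -0.033 for *Yme1l1* and *Fis1* on average. The series table gave -0.001 for *Mfn1* in D+P against C+P. The mean over all tested probes gave -0.042 and -0.084 for *Opa1* and *Dnm1l* in D against C, -0.298, 0.146 and 0.064 for *Mfn1*, *Mfn2* and *Oma1* in D+P against C+P, -0.018 and 0.159 for *Mfn1* and *Mfn2* on average, and 0.005, 0.066 and 0.024 for *Mfn2*, *Fis1* and *Mff* in D+P against D. Without the column 1 arrays the changes were -0.031 for *Fis1* in D against C, 0.189 and -0.106 for *Mfn2* and *Fis1* in D+P against C+P, 0.134 and -0.068 for the same genes on average, and 0.044 for *Mfn2* in D+P against D. Slide column as a block gave -0.019, -0.024 and -0.004 for *Fis1* in D against C, *Mff* in D+P against C+P and *Fis1* on average. With 1 array left out, the ranges that crossed 0 in D against C were -0.133 to 0.621 for *Dnm1l* and -0.031 to 0.038 for *Fis1*. In D+P against C+P they were -0.06 to 0.054 for *Mfn1*, -0.358 to 0.124 for *Mfn2*, -0.081 to 0.083 for *Fis1* and -0.129 to 0.19 for *Mff*. On average they were -0.155 to 0.085 for *Mfn2*, -0.104 to 0.102 for *Yme1l1*, -0.39 to 0.127 for *Dnm1l*, -0.04 to 0.042 for *Fis1* and -0.021 to 0.139 for *Mff*, and in D+P against D -0.407 to 0.075 for *Mfn2* and -0.111 to 0.053 for *Fis1*.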
